A study of Mus musculus with 12 samples.

Results

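The genes described here encode adhesion molecules that white blood cells meet on the walls of blood vessels, together with a ligand that the white cells carry. They are Vcam1, Madcam1, Icam1 and Icam2 of the immunoglobulin family, F11r and Jam3 of the junctional adhesion molecules, the selectins Sele and Selp, and Selplg, the main ligand of P-selectin. These 9 genes were chosen by name and known role, not by a cutoff on their values, though with earlier results of these data known, from the 18221 genes with RPKM values (reads scaled to transcript length and to library size) in spleen. All 9 were listed, and 8 of them passed the filter on low values; Sele did not.

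White cells leave the blood in steps. Selectins slow the cells down on the vessel wall by binding sugars on carriers such as the product of Selplg, and integrins on the white cell then bind immunoglobulin-type molecules on the wall and hold it there. The spleen differs from lymph nodes, since it has no high endothelial venules and lets blood flow through open spaces. In mice its marginal sinus is lined by cells that carry the product of Madcam1, and Vcam1 is carried by macrophages of the red pulp as well as by vessels and stroma.

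Spleens were taken from 12 male outbred ICR mice, aged 3 weeks at the start and 8 weeks at collection, with 3 mice per group. Con-sa mice had no busulfan and were dosed with saline, and B-sa mice had busulfan, an alkylating drug that kills dividing blood cell precursors, at 40 mg/kg and then saline. B+Con-FMT and B+A10-FMT mice had the same busulfan dose and then 2 weeks of daily fecal microbiota transplantation (FMT) by mouth, with small intestine content pooled from control donors or from donors given alginate oligosaccharides (AOS) at 10 mg/kg. Donor material was pooled, so that the mice of an FMT group do not stand for separate donors, and FMT by itself was given to no mice without busulfan. These 2 FMT groups are called Con-FMT and A10-FMT from here on, and plots give their full names. The sample labels give only the tissue, oral dosing and the agent, and the strain, sex, ages, doses and schedule are from the study's methods. The p-values measure the spread between these 3 mice per group. The sum of RPKM was 677033 to 772157 per mouse, and the depth estimated from the steps between the lowest values was 15600000 to 16300000 reads. Spleen genes were present in every mouse (Spic 44.56 to 80.97 RPKM, Tlx1 12.61 to 21.64 RPKM). Genes of neighbouring organs were present too, with summed RPKM of 563 to 16500 over 16 pancreatic acinar genes, 6.72 to 156 over 10 kidney genes and 53.2 to 332 over 10 adipocyte genes. The acinar genes were highest in Con-FMT, at 10200 to 16500 in its 3 mice, against 590 to 4210 in B-sa, 1630 to 8820 in Con-sa and 563 to 12100 in A10-FMT. The beta globin gene Hbb-bs was at 9.20 to 36.39 RPKM in the 3 B-sa mice and Con-FMT replicate 1 and at 4024.5 to 45902.01 RPKM in all other mice, which sets those 4 libraries apart.

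The promoters of Madcam1, Sele and Selp are shown because the first belongs to the member whose mean RNA level differed most between groups on the log2 scale, and the other two belong to neighbours of the same family with very different RNA levels. The sequences are from RefSeq on GRCm38.p6 and cover 250 bases before to 50 after the start of transcription, on the plus strand, at chr10:79664309-79664608 for Madcam1, chr1:164047984-164048283 for Sele and chr1:164115014-164115313 for Selp. Capitals mark matches on either strand to a loose kappa-B pattern, GGG and CC set apart by any 5 bases, a form bound by NF-kappa-B proteins.

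Madcam1: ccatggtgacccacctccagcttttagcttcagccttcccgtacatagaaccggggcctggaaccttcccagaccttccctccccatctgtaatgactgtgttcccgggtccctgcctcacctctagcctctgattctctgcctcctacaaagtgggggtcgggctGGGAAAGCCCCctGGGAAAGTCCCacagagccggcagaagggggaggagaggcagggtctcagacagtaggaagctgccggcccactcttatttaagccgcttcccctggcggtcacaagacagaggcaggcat

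Sele: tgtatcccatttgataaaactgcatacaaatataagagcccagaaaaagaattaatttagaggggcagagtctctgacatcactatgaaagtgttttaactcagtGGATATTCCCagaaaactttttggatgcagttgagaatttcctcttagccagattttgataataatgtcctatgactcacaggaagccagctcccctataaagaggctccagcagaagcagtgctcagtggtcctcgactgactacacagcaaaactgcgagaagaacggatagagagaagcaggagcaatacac

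Selp: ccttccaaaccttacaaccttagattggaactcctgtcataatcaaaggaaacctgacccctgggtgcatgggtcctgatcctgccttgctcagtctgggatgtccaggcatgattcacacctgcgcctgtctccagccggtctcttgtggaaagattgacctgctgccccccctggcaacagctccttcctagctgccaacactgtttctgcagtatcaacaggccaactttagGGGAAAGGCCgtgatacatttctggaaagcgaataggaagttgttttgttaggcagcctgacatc

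RefSeq promoters were found for 5 of the 9 genes, and each of the 5 held the kappa-B pattern at least once, as did 50.8% of all 32851 promoters of that length. Madcam1 held 5 overlapping matches in a pair of stretches that begin at -84 and -71 counted from the start of transcription, Sele 1 at -145, Selp 1 at -15, Icam1 1 at -120 and F11r 5. The core TNAAGTG, bound by NKX2 factors, was in none of the 5 and in 11.5% of all promoters, and the interferon response core, GAAA repeated after any 2 bases, was in none of the 5 and in 3.44% of all. These are matches of letters, not sites of binding.

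The order of the levels was the same at the top in every group. Vcam1 was highest, at 94.35 to 151.23 RPKM over the 12 mice, followed by Selplg (61.63 to 81.48), Icam1 (35.77 to 44.18), Icam2 (25.57 to 35.91) and Madcam1 (12.36 to 21.75), and no 2 neighbours among these 5 overlapped between the mice of any group. F11r (6.64 to 9.46), Jam3 (5.96 to 8.32) and Selp (3.79 to 6.74) followed; F11r and Jam3 overlapped in all groups but B-sa, and Jam3 and Selp overlapped in B-sa and Con-FMT. Sele was last in every mouse, at 0.01 to 0.12 RPKM. RPKM is scaled to transcript length, but the levels of genes with several listed transcripts are sums, and the order depends on that: the curated transcript of Selplg alone was at 19.21 to 28.24 RPKM, below Icam1, and 67.2% of Selplg was in a predicted transcript.

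**Figure D1:**
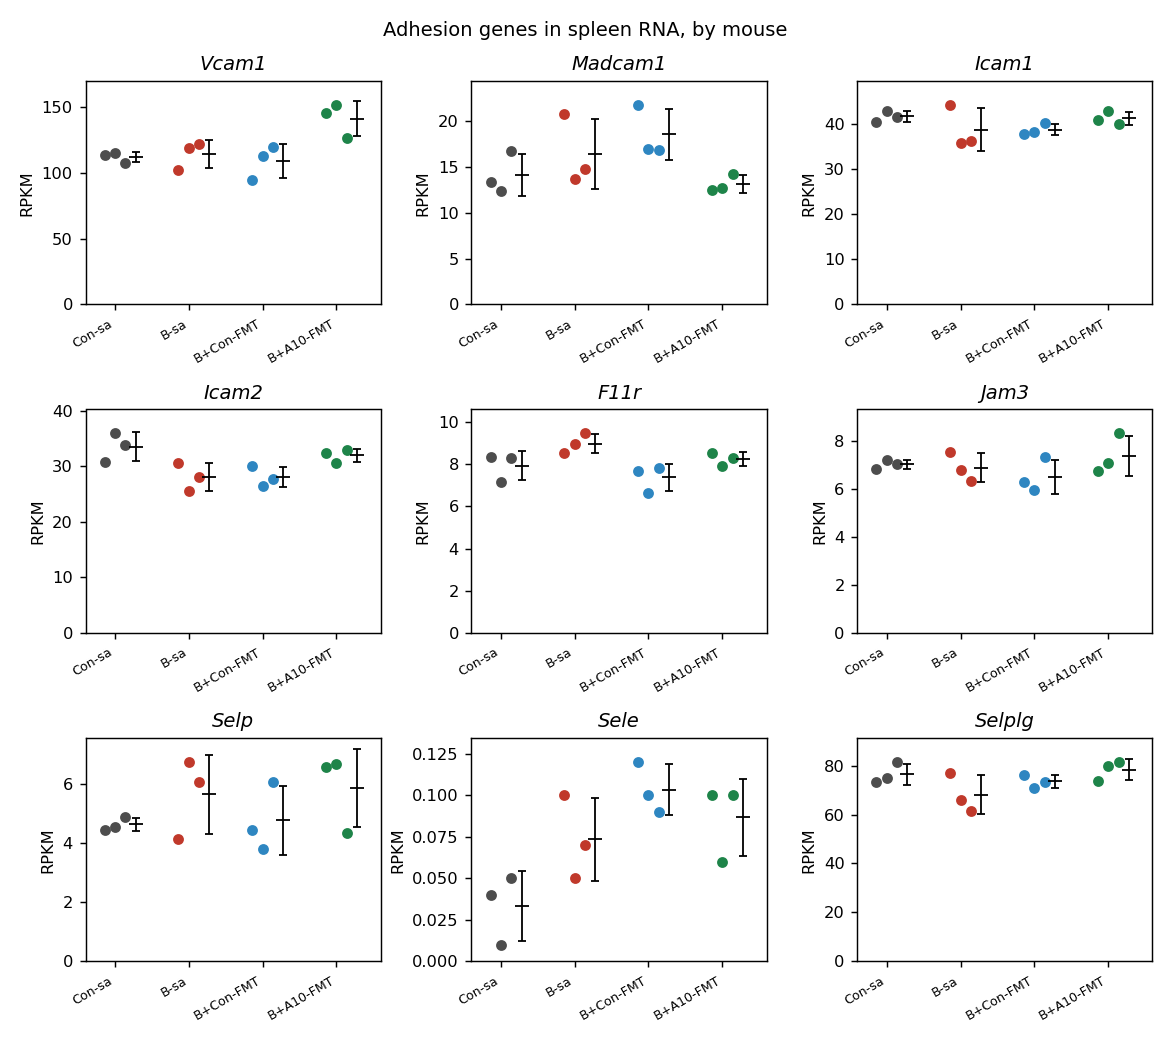
RPKM of the 9 adhesion genes in the 12 mice, with 1 point per mouse, groups on the x axis and bars giving the mean ± SD (n = 3); each panel starts at 0 on its own scale. Vcam1 points of A10-FMT lie at 126.06 to 151.23, above all other mice, while Madcam1 points of the same group lie at 12.47 to 14.23, below all Con-FMT mice.

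Across the 6 comparisons between groups, which share groups with each other, limma with Benjamini-Hochberg adjustment over 12671 genes called 2 of 48 differences of the 8 tested members at an adjusted p under 0.05. Vcam1 was higher in A10-FMT than in Con-FMT and Icam2 was lower in B-sa mice than in Con-sa mice, where 7.58% of all tested genes were called higher and 9.78% lower, respectively. A further 10 differences had an unadjusted p under 0.05, which makes 12 in all. In 13 of the 48 the mice of the 2 groups did not overlap. Over all 12671 tested genes, 1710 to 3970 had an unadjusted limma p under 0.05, depending on the comparison, and 19.4% to 35.0% had no overlap. The member counts lie near these shares. For 3 mice against 3 the smallest p of an exact permutation test is 0.1, so no single gene can pass that test.

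Vcam1 encodes the vascular cell adhesion molecule that binds integrins with the chain made from Itga4. It is a gene of 9 exons on the minus strand of chromosome 3 (chr3:116109949-116129688, mm10), and 1 transcript was listed. Its RPKM was 113.21, 115.12 and 107.42 in Con-sa, 102.01, 118.77 and 121.51 in B-sa, 94.35, 112.24 and 119.15 in Con-FMT and 145.17, 151.23 and 126.06 in A10-FMT. Con-sa, B-sa and Con-FMT mice overlapped one another, and every A10-FMT mouse was above all of them.

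The mean of Vcam1 was 112 ± 4.01 RPKM in Con-sa, 114 ± 10.6 in B-sa, 109 ± 12.8 in Con-FMT and 141 ± 13.1 in A10-FMT (SD, n = 3 each). It was 29.7% higher in A10-FMT than in Con-FMT, a log2 fold change of 0.37 (SE 0.094, 95% interval 0.17 to 0.58, limma adjusted p = 0.028). Against B-sa the log2 fold change was 0.30 (limma adjusted p = 0.0755) and against Con-sa 0.32 (limma adjusted p = 0.177), so neither passed although the mice did not overlap. B-sa and Con-sa differed by a log2 of 0.02 (95% interval -0.18 to 0.23). The call against Con-FMT is a narrow one: the adjusted p was 0.0503 to 0.0647 with no filter on low values, with only those groups fitted, with median-of-ratios scaling, with curated or top transcripts only and with the trend of length and GC content removed. It was also lost, at 0.0595 to 0.12, without Con-FMT replicate 1 or 2 or A10-FMT replicate 1 or 2.

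Genes of red pulp macrophages were also higher in A10-FMT. Of the 12 genes of that list, 8 were called higher in A10-FMT than in Con-FMT and all 12 had a positive difference, among them Slc40a1, the iron exporter (141 against 87.7 RPKM, log2 fold change 0.68, limma adjusted p = 0.00399), and Mertk, a receptor for dying cells (log2 fold change 0.63, limma adjusted p = 0.00486). The summed level of the list was 590 to 736 RPKM in Con-FMT and 911 to 1060 in A10-FMT, beside 622 to 825 in B-sa and 807 to 832 in Con-sa, and no gene of it was at 0. Endothelial genes moved with the same comparison too, with 13 of 18 called higher and none lower, at 211 to 250 summed RPKM in Con-FMT and 292 to 311 in A10-FMT. Kidney genes moved the other way, at 21.0 to 73.5 against 6.72 to 8.86 summed RPKM, and 2 of 4 tested ones were called lower. Acinar genes, most abundant in Con-FMT as given above, had a negative difference in 16 of 16, none of them called. The part of these cells and organs in the Vcam1 result was not tested, and in RNA of a whole organ fewer cells of a type and less RNA per cell cannot be told apart.

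Over the 12 mice Vcam1 correlated with the mean log2(RPKM + 1) of the red pulp macrophage list (Pearson r = 0.882, permutation p adjusted over 24 relations 0.0043), and Spearman's rho was 0.755 (adjusted permutation p = 0.067). Without the 2 mice farthest from the median of the list r was 0.792, and within groups, after the group means were taken off, it was 0.914. Against the endothelial list r was 0.592 (adjusted permutation p = 0.14; rho 0.552, adjusted permutation p = 0.2). The 3 genes with the profile most like that of Vcam1 among the 12671 were Hgsnat (r = 0.969), Slc40a1 (r = 0.959) and Kcnj10 (r = 0.954), and Slc40a1 is also in the macrophage list.

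Madcam1 encodes the mucosal addressin, which binds the integrin made from Itga4 and Itgb7. It lies on the plus strand of chromosome 10 (chr10:79664559-79668537, mm10) with 5 exons, and its 2 listed transcripts, 1 curated and 1 predicted, were summed. Its RPKM was 13.32, 12.36 and 16.71 in Con-sa, 20.72, 13.66 and 14.72 in B-sa, 21.75, 16.99 and 16.86 in Con-FMT and 12.47, 12.71 and 14.23 in A10-FMT. The Con-FMT mice were all above the Con-sa and the A10-FMT mice, and the B-sa mice overlapped every group.

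The mean of Madcam1 was 14.1 ± 2.29 RPKM in Con-sa, 16.4 ± 3.81 in B-sa, 18.5 ± 2.79 in Con-FMT and 13.1 ± 0.954 in A10-FMT (SD, n = 3 each). The difference between A10-FMT and Con-FMT was the widest of any tested member, a log2 fold change of -0.46 (SE 0.15, 95% interval -0.79 to -0.13), and it did not pass (limma adjusted p = 0.0743). With only those 2 groups fitted the adjusted p was 0.0355 and with median-of-ratios scaling 0.0454, and under the other planned settings apart from single mice left out it was up to 0.168. Con-FMT against Con-sa gave a log2 fold change of 0.37 (limma adjusted p = 0.143) and B-sa against Con-sa 0.19 (limma adjusted p = 0.428).

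The correlation of Vcam1 with Madcam1 across the mice did not pass. It was r = -0.782 (permutation p adjusted over 28 member pairs 0.077) with rho = -0.664 (adjusted permutation p = 0.22), -0.778 without the 2 extreme mice and -0.846 within groups. Madcam1 also correlated inversely with the red pulp macrophage list (r = -0.884, adjusted permutation p = 0.0029; rho -0.734, adjusted permutation p = 0.067), with -0.677 without the 2 extreme mice and -0.78 within groups. The mice with the lowest macrophage list, Con-FMT replicate 1 and B-sa replicate 1, had the highest Madcam1 and the lowest Vcam1. The genes most like Madcam1 were Wdyhv1 (r = 0.959), Pop7 (r = 0.928) and Gpatch4 (r = 0.926).

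**Figure D2:**
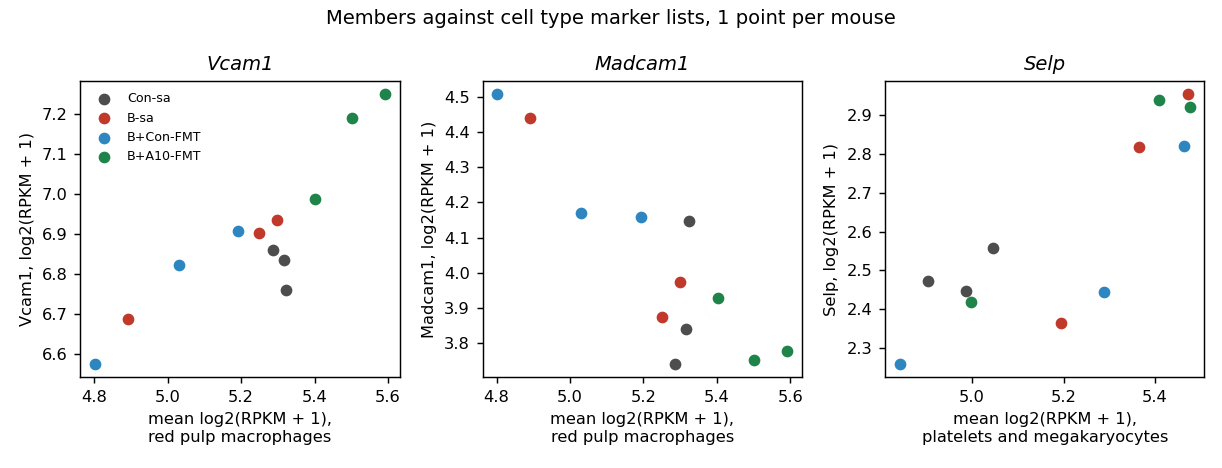
Vcam1 and Madcam1 against the mean of the red pulp macrophage list, and Selp against the mean of the platelet and megakaryocyte list, all in log2(RPKM + 1) with 1 point per mouse coloured by group. Vcam1 rises (r = 0.882) and Madcam1 falls (r = -0.884) along the macrophage axis, and Selp rises along the platelet axis (r = 0.86).

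Genes around the marginal sinus gave no common direction. Of the 16 genes of the sinus lining and stroma list, which also holds genes of ligands such as Ltb, 3 were called higher in A10-FMT than in Con-FMT. Ltb was the 1 gene called lower. Nkx2-3, a factor known to be needed for Madcam1 in mouse spleen, was at 7.31 ± 0.341 RPKM in Con-sa, 6.13 ± 0.835 in B-sa, 7.36 ± 0.976 in Con-FMT and 7.45 ± 0.13 in A10-FMT and was called in no comparison. Tlx1, a factor of spleen stroma, was higher in A10-FMT than in Con-FMT (20.4 against 14.5 RPKM, log2 fold change 0.46, limma adjusted p = 0.00325). Ltbr, the lymphotoxin beta receptor, was higher as well (log2 fold change 0.36, limma adjusted p = 0.0302), and Ltb, which encodes its ligand, was lower (225 against 263 RPKM, log2 fold change -0.22, limma adjusted p = 0.0374).

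Icam1 encodes the inducible ligand of the integrins that contain the product of Itgb2. It lies at chr9:21015985-21028817 on the plus strand (mm10), with 1 listed transcript. Its RPKM was 40.42, 42.94 and 41.58 in Con-sa, 44.18, 35.77 and 36.29 in B-sa, 37.80, 38.21 and 40.09 in Con-FMT and 40.95, 42.80 and 40.01 in A10-FMT. B-sa replicate 1 was the highest mouse of all and the other B-sa mice were the lowest.

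No difference of Icam1 passed, and the widest was that of B-sa against Con-sa (log2 fold change -0.11, 95% interval -0.26 to 0.05, limma adjusted p = 0.319). It rested on which mice were kept: without B-sa replicate 1 it was -0.20 (limma adjusted p = 0.0247), without B-sa replicate 2 -0.06 (limma adjusted p = 0.694) and without B-sa replicate 3 -0.07 (limma adjusted p = 0.606). Of 11 tested genes of the inflammatory induction list, which share with Icam1 an induction by cytokines, none was called in B-sa against Con-sa. Of the same genes, with A10-FMT set against Con-FMT, 1 was higher and 2 were lower, with Tnf at 5.14 against 7.54 RPKM (log2 fold change -0.47, limma adjusted p = 0.0367).

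Icam2 encodes a ligand of the same integrins that endothelium, platelets and some white cells carry without induction. It lies at chr11:106377656-106388075 on the minus strand (mm10), and its 5 listed transcripts, 1 curated and 4 predicted, were summed. Its RPKM was 30.74, 35.91 and 33.84 in Con-sa, 30.52, 25.57 and 28.05 in B-sa, 30.10, 26.43 and 27.73 in Con-FMT and 32.34, 30.62 and 32.94 in A10-FMT. All B-sa and all Con-FMT mice were below all Con-sa and all A10-FMT mice.

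The mean of Icam2 was 16.3% lower in B-sa mice than in Con-sa mice (28 against 33.5 RPKM), a log2 fold change of -0.25 (SE 0.075, 95% interval -0.41 to -0.09, limma adjusted p = 0.043). The same size of difference in Con-FMT against Con-sa did not pass (-0.25, limma adjusted p = 0.0581), nor did A10-FMT against B-sa (0.19, limma adjusted p = 0.151). The call was lost, at 0.0596 to 0.0901, with no filter, with a replicate block, with only those 2 groups fitted and with median-of-ratios scaling, and at 0.0805 to 0.17 without Con-sa replicate 2 or 3 or B-sa replicate 2 or 3. Endothelial genes were lower in the same comparison, with 9 of 18 called lower and none higher, and at 287 to 297 summed RPKM in Con-sa against 230 to 248 in B-sa. B cell genes (6 of 8 called) and kidney genes (3 of 4 called, 86.3 to 156 against 14.2 to 41.3 summed RPKM) were lower as well. Neutrophil and monocyte genes were at 2080 to 2160 summed RPKM in Con-sa against 3670 to 6020 in B-sa, with 2 of 10 called higher (Camp and Retnlg). Of 9 tested erythroid genes, 7 had a positive difference and 3 were called higher, among them Epor and Klf1. Hbb-bs and Hbb-bt were called lower, and the summed level of the erythroid list was 130000 to 165000 RPKM in Con-sa and 122000 to 147000 in B-sa. Platelet and megakaryocyte genes had a positive difference in 14 of 14, opposite to Icam2, at 960 to 1030 summed RPKM in Con-sa against 1190 to 1450 in B-sa, with 2 called higher (Gp5 and Gp9). The part of these in the Icam2 result was not tested.

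For 3 members the values were also taken by transcript class, and the difference between classes was not tested. In Icam2 the curated transcript was at 16.9 ± 0.921 RPKM in Con-sa and 15.7 ± 1.49 in B-sa (SD, n = 3), a log2 fold change of -0.10 (limma adjusted p = 0.657), while the predicted ones were at 16.6 ± 1.71 and 12.3 ± 3.92 RPKM. On the curated transcript of Icam2 the other differences given above were smaller too, at -0.08 for Con-FMT against Con-sa (limma adjusted p = 0.71) and 0.01 for A10-FMT against B-sa (limma adjusted p = 0.983). In Madcam1 the curated transcript gave -0.41 for A10-FMT against Con-FMT (limma adjusted p = 0.0839), near the -0.46 of the sum. How reads were shared between transcripts of a gene is not given in the sources used here.

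**Figure D3:**
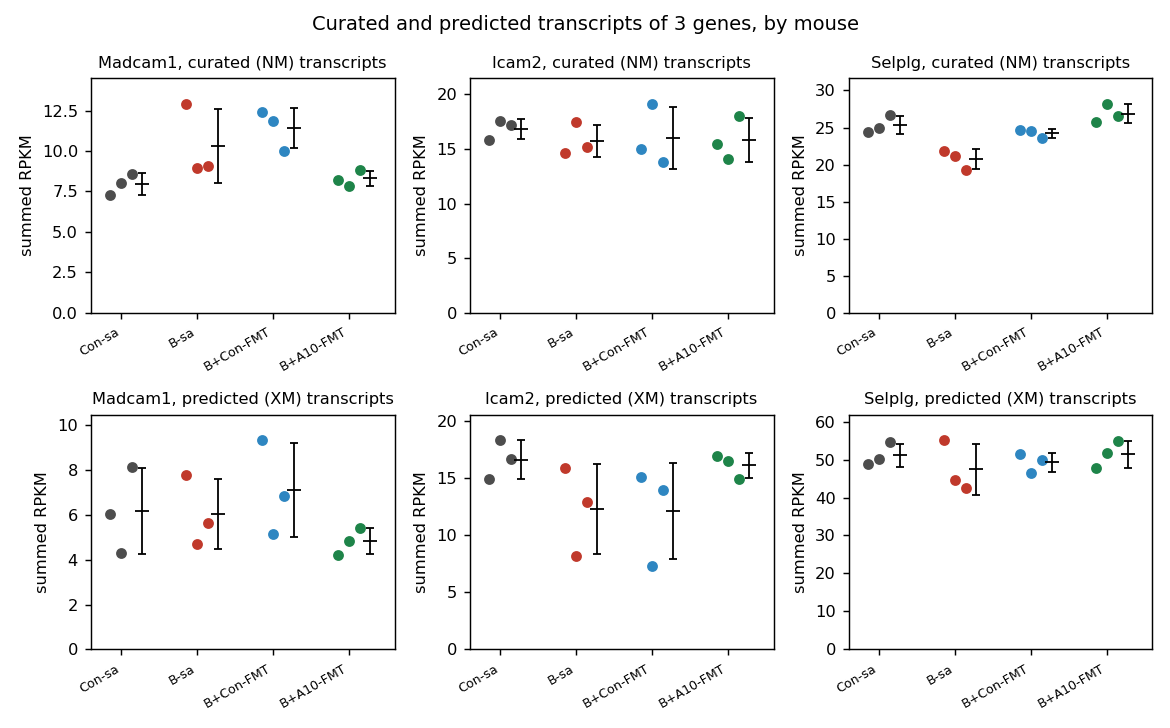
Summed RPKM of curated (upper row) and predicted (lower row) RefSeq transcripts of Madcam1, Icam2 and Selplg, with 1 point per mouse and bars giving the mean ± SD (n = 3). Curated Selplg lies at 19.21 to 21.87 in B-sa, below every other mouse, whereas curated Icam2 overlaps between all groups.

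Selplg encodes the carrier of sugars by which white cells bind P-selectin, and it lies on chromosome 5. Its RPKM, 1 curated and 1 predicted transcript together, was 73.08, 75.06 and 81.25 in Con-sa, 76.95, 65.92 and 61.63 in B-sa, 76.20, 70.92 and 73.33 in Con-FMT and 73.51, 79.90 and 81.48 in A10-FMT. The lowest 2 mice were of B-sa, and the third B-sa mouse lay among the other groups. B-sa against Con-sa gave a log2 fold change of -0.17 (limma adjusted p = 0.15) and A10-FMT against B-sa 0.20 (limma adjusted p = 0.129).

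The curated transcript of Selplg alone was at 24.36, 24.96 and 26.70 RPKM in Con-sa, 21.87, 21.21 and 19.21 in B-sa, 24.68, 24.53 and 23.56 in Con-FMT and 25.80, 28.24 and 26.62 in A10-FMT. Every B-sa mouse was below every other mouse. In the fit of curated transcripts it was lower in B-sa mice than in Con-sa mice (log2 fold change -0.28, limma adjusted p = 0.0266) and higher in A10-FMT than in B-sa (0.36, limma adjusted p = 0.0224). The predicted transcript held 67.2% of the summed level and showed no such order, at 48.72, 50.10 and 54.55 RPKM in Con-sa, 55.08, 44.71 and 42.42 in B-sa, 51.52, 46.39 and 49.77 in Con-FMT and 47.71, 51.66 and 54.86 in A10-FMT, with B-sa replicate 1 the highest mouse of all. With the top transcript only the same differences were -0.11 (limma adjusted p = 0.501) and 0.12 (limma adjusted p = 0.521). With single mice left out, the sum of transcripts passed only without B-sa replicate 1, at -0.26 (limma adjusted p = 0.0217) and 0.29 (limma adjusted p = 0.0268), and without B-sa replicate 3 it was -0.10 (limma adjusted p = 0.402) and 0.13 (limma adjusted p = 0.307).

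Enzymes and carriers that make up the other ligands of selectins were mostly not called. Of 16 tested genes of that list, 3 were called lower and none higher in B-sa mice than in Con-sa mice, beside 9.78% and 4.73% of all genes: Glg1, which encodes a carrier for E-selectin (13.0 against 16.1 RPKM, log2 fold change -0.29, limma adjusted p = 0.0178), Gcnt1, an enzyme that branches O-glycans (log2 fold change -0.26, limma adjusted p = 0.0266), and Tpst2, which adds sulfate to tyrosines of the Selplg product (32.2 against 37.4 RPKM, log2 fold change -0.21, limma adjusted p = 0.0278). Fut7, a fucosyltransferase of selectin ligands, lay near the filter at 0.63 to 1.58 RPKM, where differences are hard to see, and was called in no comparison. In A10-FMT against Con-FMT, 2 were called higher and none lower.

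Selp encodes P-selectin, which platelets and endothelium store in granules. It lies on chromosome 1 (chr1:164115264-164150026, mm10), 57.6 kb after the end of Sele. Its RPKM was 4.45, 4.55 and 4.89 in Con-sa, 4.15, 6.74 and 6.05 in B-sa, 4.44, 3.79 and 6.06 in Con-FMT and 6.57, 6.66 and 4.35 in A10-FMT. Con-sa mice lay close together, and in every busulfan group values below and above theirs occurred.

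No difference of Selp passed, and the widest was that of A10-FMT against Con-sa (log2 fold change 0.27, SE 0.18, 95% interval -0.13 to 0.66, limma adjusted p = 0.544). Its level went with that of platelet genes. Against the mean of 14 platelet and megakaryocyte genes r was 0.86 (adjusted permutation p = 0.012) and rho 0.79 (adjusted permutation p = 0.067), with 0.834 without the 2 extreme mice and 0.892 within groups. Against the endothelial list r was 0.212 (adjusted permutation p = 0.63). The genes most like Selp were Agfg2 (r = 0.923), Gp1ba (r = 0.923), a platelet receptor chain that is in the list, and Serpine2 (r = 0.921). All 14 platelet genes had a positive difference in B-sa against Con-sa, and 2 were called higher, among them Gp9 (66.7 against 48.5 RPKM, log2 fold change 0.45, limma adjusted p = 0.0457).

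Sele encodes E-selectin, which endothelium makes after induction by cytokines, and it lies at chr1:164048234-164057677 on the plus strand (mm10). Its RPKM was 0.04, 0.01 and 0.05 in Con-sa, 0.10, 0.05 and 0.07 in B-sa, 0.12, 0.10 and 0.09 in Con-FMT and 0.10, 0.06 and 0.10 in A10-FMT. The mice of both FMT groups were all above the Con-sa mice. Every mouse was far under the filter of 1 RPKM, and the curated transcript corresponded to an estimated 0 to 4 reads per mouse, so Sele was not tested and no fold change is given.

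F11r and Jam3 encode junctional adhesion molecules, the first of epithelium, endothelium and platelets and the second of endothelium and other cells. F11r, on chromosome 1, was at 8.34, 7.14 and 8.30 RPKM in Con-sa, 8.53, 8.94 and 9.46 in B-sa, 7.70, 6.64 and 7.80 in Con-FMT and 8.53, 7.91 and 8.30 in A10-FMT. All B-sa mice were above all Con-sa and all Con-FMT mice. Con-FMT against B-sa gave a log2 fold change of -0.25 (SE 0.077, 95% interval -0.42 to -0.09, limma adjusted p = 0.123) and B-sa against Con-sa 0.16 (limma adjusted p = 0.172).

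Jam3, on chromosome 9, was at 6.84, 7.21 and 7.04 RPKM in Con-sa, 7.53, 6.81 and 6.35 in B-sa, 6.28, 5.96 and 7.32 in Con-FMT and 6.76, 7.08 and 8.32 in A10-FMT. The mice of all groups overlapped, and the widest difference, A10-FMT against Con-FMT, was 0.16 on the log2 scale (95% interval -0.04 to 0.35, limma adjusted p = 0.262). Of 18 tested genes of a list of other junction and adhesion molecules, 2 were called higher and 3 lower in B-sa mice than in Con-sa mice. Over all genes these shares were 4.73% and 9.78%. Jam2, a relative of Jam3 that binds its product, was among the lower ones (2.46 against 3.41 RPKM, log2 fold change -0.35, limma adjusted p = 0.0113). It was also lower in Con-FMT than in Con-sa (-0.46, limma adjusted p = 0.00437). Cdh5, the cadherin of endothelial junctions, was higher in A10-FMT than in Con-FMT (11.2 against 7.27 RPKM, log2 fold change 0.57, limma adjusted p = 0.00962). Esam, another endothelial junction molecule, was called in no comparison.

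**Figure D4:**
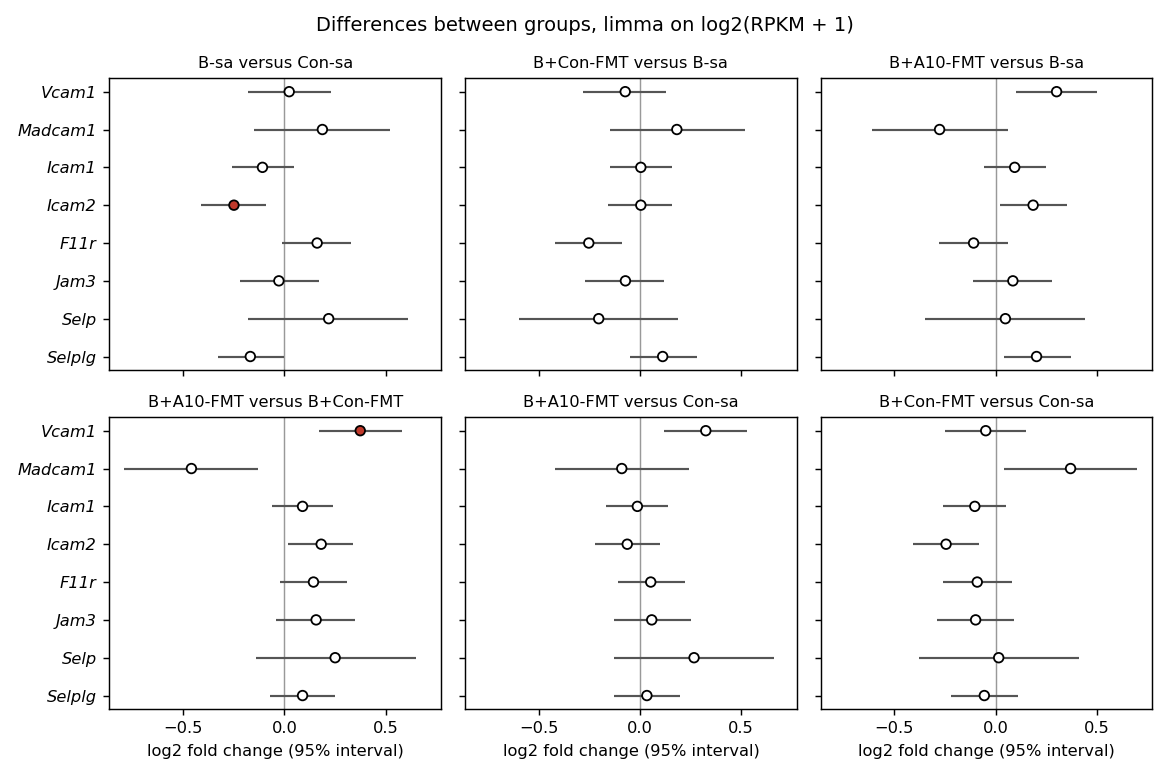
Log2 fold changes of the 8 tested genes in the 6 comparisons, from limma on log2(RPKM + 1), with 95% intervals as lines; filled points are the 2 differences with an adjusted p under 0.05. Vcam1 at 0.37 and Madcam1 at -0.46 lie on opposite sides of 0 in A10-FMT against Con-FMT.

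The members were then counted by comparison beside all genes. The shares over all genes are no fixed measure, since leaving out 1 mouse changed the number of genes called several-fold in some comparisons, from 1312 to 222 in A10-FMT against Con-FMT without A10-FMT replicate 2. Their balance between higher and lower also turned with the scaling: under median-of-ratios scaling the 599 higher and 1239 lower genes of B-sa against Con-sa became 965 and 772, the 960 and 352 of A10-FMT against Con-FMT became 560 and 695, and the 507 and 161 of A10-FMT against B-sa became 282 and 349. In B-sa against Con-sa, 0 of 8 members were called higher and 1 lower, beside 4.73% and 9.78% of all 12671 genes, and the mice did not overlap for 2 members, beside 34.0% of all genes; the median difference was 0.00 in members and -0.04 in all genes. The members without overlap were Icam2 and F11r, of which F11r was higher in B-sa.

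For Con-FMT against B-sa limma called 0 members higher and 0 lower, beside 0.623% and 0.221% of all genes, and 1 member, F11r, had an unadjusted p under 0.05. The mice did not overlap for 1 member, beside 19.4% of all genes. The median difference was -0.03 in members and 0.00 in all genes.

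Set against B-sa, A10-FMT had 0 members called by limma higher and 0 lower, beside 4.0% and 1.27% of all genes, and 3 members, Vcam1, Icam2 and Selplg, had an unadjusted p under 0.05, all with higher levels in A10-FMT. The mice did not overlap for 2 members, beside 27.0% of all genes. The median difference was 0.09 in members and 0.05 in all genes.

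In A10-FMT against Con-FMT, which sets the donors apart, limma called 1 member higher and 0 lower, beside 7.58% and 2.78% of all genes, and 3 members had an unadjusted p under 0.05. The mice did not overlap for 4 members (Vcam1, Madcam1, Icam2 and F11r), beside 35.0% of all genes. The median difference was 0.15 in members and 0.05 in all genes, with Madcam1 the 1 member lower.

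Set against Con-sa, A10-FMT had 0 members called by limma higher and 0 lower, beside 0.118% and 0.292% of all genes. Vcam1 was the 1 member with an unadjusted p under 0.05 and the 1 tested member without overlap, beside 21.6% of all genes. The median difference was 0.04 in members and 0.01 in all genes.

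In Con-FMT against Con-sa, limma called 0 members higher and 0 lower, beside 2.30% and 6.57% of all genes, and 2 members, Madcam1 and Icam2, had an unadjusted p under 0.05. The mice did not overlap for 3 members, beside 34.2% of all genes, with Madcam1 higher and Icam1 and Icam2 lower in Con-FMT. The median difference was -0.07 in members and -0.04 in all genes.

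The receptors for these molecules on white cells were measured in the same RNA. Itga4 encodes the integrin chain that binds both Vcam1 and Madcam1 products. Its RPKM was 47.09, 40.96 and 43.96 in Con-sa, 43.58, 41.71 and 43.52 in B-sa, 34.19, 34.55 and 35.13 in Con-FMT and 52.93, 55.24 and 58.02 in A10-FMT. Both FMT groups lay apart from all other mice, Con-FMT below and A10-FMT above.

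Itga4 was higher in A10-FMT than in Con-FMT (55.4 against 34.6 RPKM, log2 fold change 0.66, limma adjusted p = 0.000165), than in B-sa (0.36, limma adjusted p = 0.00649) and than in Con-sa (0.33, limma adjusted p = 0.0254). It was lower in Con-FMT than in B-sa (-0.30, limma adjusted p = 0.026) and than in Con-sa (-0.34, limma adjusted p = 0.00591). Its partner chains Itgb1 and Itgb7 were called in no comparison, with Itgb7 at 72.1 ± 6.47 RPKM in Con-FMT and 65.7 ± 6.48 in A10-FMT (SD, n = 3).

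The chains that bind the products of Icam1 and Icam2, Itgal and Itgb2, were also called in no comparison. Itgb2 was at 87.72 to 90.42 RPKM in Con-sa and at 95.48 to 104.96 in A10-FMT, without overlap (log2 fold change 0.16, limma adjusted p = 0.212). Itgax, another receptor chain, of dendritic cells and some macrophages, was higher in A10-FMT than in Con-FMT (21.0 against 16.4 RPKM, log2 fold change 0.34, limma adjusted p = 0.0158). It was lower in Con-FMT than in Con-sa (-0.25, limma adjusted p = 0.0496).

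**Figure D5:**
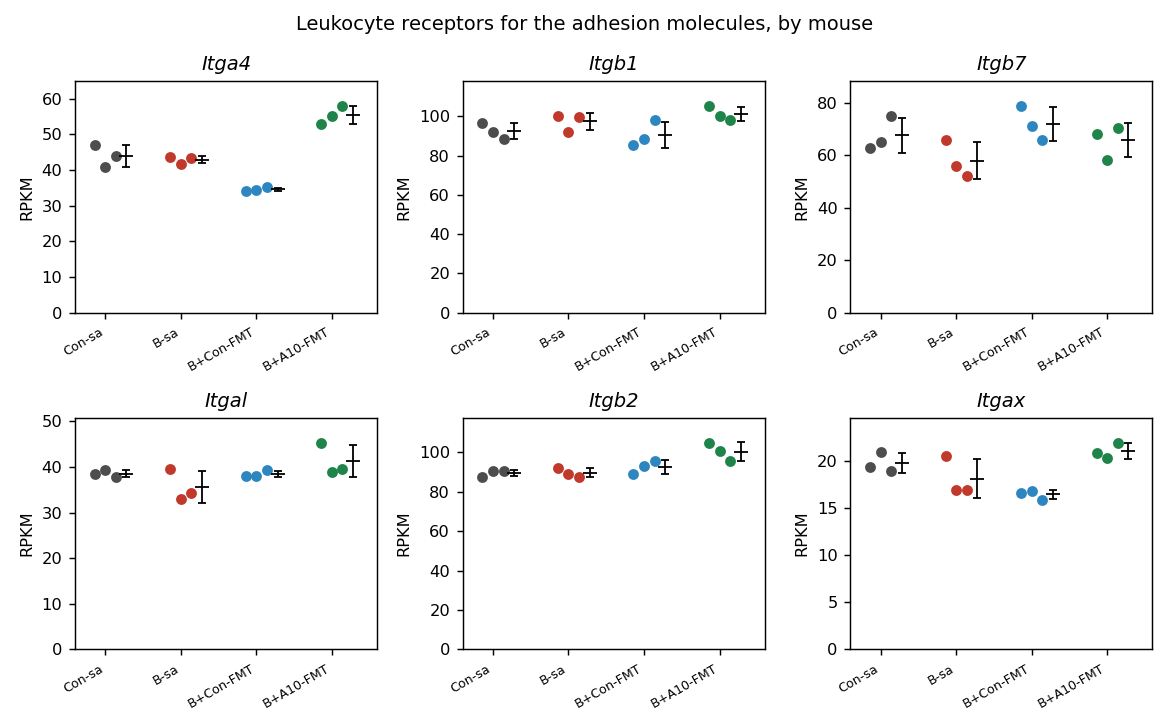
RPKM of 6 receptor genes of white cells in the 12 mice, with 1 point per mouse and bars giving the mean ± SD (n = 3); each panel starts at 0. Itga4 lies at 34.19 to 35.13 in Con-FMT and at 52.93 to 58.02 in A10-FMT with no overlap, while Itgb7 overlaps between those groups.

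The vessel label of the genes can be set beside the endothelial list. All 18 endothelial genes passed the filter, with Plvap (74.5 RPKM) and Pecam1 (47.8 RPKM) the highest over the 12 mice. Of the 18, with A10-FMT set against Con-FMT, 13 were called higher and none lower, beside 7.58% of all genes and 1 of the 8 members, and in Con-FMT against Con-sa 12 of 18 were called lower and none higher, beside 6.57% of all genes and none of the members. At 8 members such counts lie near the shares over all genes. The difference between the lists was not tested. None of the members correlated with the endothelial list at an adjusted permutation p under 0.05, with r from 0.0831 for F11r to 0.691 for Icam2 and -0.656 for Madcam1. Within groups r was -0.214 for Icam2 and -0.0931 for Madcam1.

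Antisense genes overlap Vcam1, Icam1, Jam3 and Selp in the annotation, and strand was not stated for the counting, so reads of those genes and of their antisense partners cannot be told apart here.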

How the data were processed

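RNA of 12 spleens was measured, 3 per group, with groups taken from the agent in the sample labels. The authors extracted total RNA with TRIzol, enriched it with oligo(dT) and mapped reads to reference genes; the submitters' processing notes name HISAT, Bowtie2 and mm10, and the paper names SOAPaligner, so the aligner behind the values is uncertain. The authors deposited RPKM per RefSeq transcript (60654 in each mouse), without counts. Transcript values were added up per gene (18221 genes), and symbols were matched by gene identifier for 18101. Positions are from GENCODE (GRCm38, the assembly of mm10).

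Genes reaching 1 RPKM in 3 or more mice (12671) entered a limma fit (limma 3.58.1, R 4.3.3, trend and robust settings) of log2(RPKM + 1), all 12 mice in 1 fit with group as factor. P-values are two-sided and were Benjamini-Hochberg adjusted over all tested genes, with a threshold of 0.05. Fold changes on this scale understate those of low genes. The authors' own test needs counts and was not run. Correlations over 12 mice used 100000 permutations of the values among all mice without regard to group, so their p-values also take in differences between groups. No p was computed for r within groups. The fit was tested on simulated data. Named genes were the 9 members, up to 4 called genes per list and comparison by smallest adjusted p, up to 2 of highest mean RPKM per marker list, and the 3 genes most like each member; Nkx2-3, Fut7, Esam, Itgb1, Itgb7, Itgal and Itgb2 are list genes outside that rule, chosen after their values were seen. One list gene is not reported here. The members and lists were chosen with earlier results of these data known. Alternatives were another pseudocount (0.1), no filter, a stricter filter, a replicate block, fits of 2 groups, median-of-ratios scaling, equal totals outside globin, curated or top transcripts only, removal of length and GC trends, and each mouse left out in turn. Permutations ran in SciPy 1.17.1 under Python 3.11.15 with pandas 2.3.3 and NumPy 2.4.6. The precision rests on 3 mice per group; depth was estimated, not given.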

Additional observations from a re-analysis of the deposited data

Results flagged for a closer look

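Vcam1 differed between the 2 kinds of FMT relative to B-sa, by the test of the difference itself (log2 0.37 for A10-FMT against Con-FMT, limma adjusted p = 0.028), and it was higher in 3 of 3 A10-FMT mice than in every Con-FMT mouse. The call was lost under 6 of 10 other settings (limma adjusted p = 0.0503 to 0.0647) and in 4 of the 6 fits that left out 1 mouse of these groups (0.0595 to 0.12). The Con-FMT mice did not lie on 1 side of the B-sa mean of 114 RPKM, with 1 of them above it at 119.15. Madcam1 moved the opposite way, with all Con-FMT mice above and all A10-FMT mice below the B-sa mean of 16.4 RPKM, although the difference between the FMT groups did not pass (log2 -0.46, limma adjusted p = 0.0743). That mean was drawn up by B-sa replicate 1 (20.72 RPKM, against 13.66 and 14.72 in the others), and the B-sa mice overlapped both FMT groups. Without that mouse Con-FMT against B-sa went from 0.18 to 0.35 on the log2 scale (limma adjusted p = 0.137) and A10-FMT against B-sa from -0.28 to -0.10 (limma adjusted p = 0.633). Without Con-FMT replicate 1, Con-FMT against B-sa was 0.07 (limma adjusted p = 0.897).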

How the results depend on the processing

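The limits are 3 mice per group, values without counts, whole-organ RNA and small differences, at most 0.46 on the log2 scale in any member in the fit reported and as far as -0.519 with 1 mouse left out (Madcam1, A10-FMT against Con-FMT). Of 480 member results under 10 other settings, 450 kept their direction and side of the threshold, as did 256 of 288 with 1 mouse left out.

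In B-sa against Con-sa, the 1 member called became 0 with no filter, with only the 2 groups fitted, with median-of-ratios scaling and with the top transcript only. Curated transcripts alone again gave 1 member, but it was Selplg in place of Icam2. With 1 mouse left out the count was 0 to 3, and the 3 without B-sa replicate 1 were Icam1, Icam2 and Selplg. With A10-FMT set against B-sa, curated transcripts gave 1 member (Selplg) in place of 0, and leaving out 1 mouse gave 0 to 1. With A10-FMT set against Con-FMT, the 1 member called became 0 with no filter, with curated transcripts and with the top transcript only, and 2 with equal totals outside globin; leaving out 1 mouse gave 0 to 1. The count stayed at 1 with only the 2 groups fitted and with median-of-ratios scaling, where it was Madcam1, and with the length and GC trend removed, where it was Icam2. In Con-FMT against Con-sa, 1 member (Icam2) in place of 0 was called with equal totals outside globin and with the length and GC trend removed. The cause of these changes was not tested.

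With a replicate block, 0 members were called in B-sa against Con-sa in place of 1, with Icam2 at an adjusted p of 0.0596, and no other member call changed. The replicate numbers belong to different mice, and the deviations of equally numbered mice correlated at -0.373 to 0.303, and in each comparison at least 1 of these correlations was negative, so the numbers were not taken as pairs. Over all genes the block lowered the calls from 668 to 417 in A10-FMT against B-sa.

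Directions reversed near 0. Icam1 in Con-FMT against B-sa was -0.047 with equal totals outside globin and -0.013 with the length and GC trend removed, and Icam2 was -0.048 and -0.035 there. Icam2 in A10-FMT against Con-FMT was -0.005 with curated and with top transcripts, and Madcam1 in A10-FMT against Con-sa was 0.057 with either. Jam3 in B-sa against Con-sa was 0.015 with median-of-ratios scaling, and Selp in Con-FMT against Con-sa was -0.025 with equal totals outside globin. With 1 mouse left out, A10-FMT against Con-sa gave -0.012 to 0.087 for F11r, -0.040 to 0.008 for Icam1, -0.020 to 0.112 for Jam3 and -0.174 to 0.029 for Madcam1. Con-FMT against B-sa gave -0.049 to 0.1 for Icam1, -0.059 to 0.064 for Icam2 and -0.151 to 0.023 for Vcam1, and Con-FMT against Con-sa gave -0.141 to 0.139 for Selp and -0.119 to 0.047 for Vcam1. B-sa against Con-sa gave -0.084 to 0.024 for Jam3 and -0.023 to 0.102 for Vcam1, and A10-FMT against B-sa gave -0.126 to 0.217 for Selp.

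Over all tested genes, those called in B-sa against Con-sa fell from 1838 to 547 with the top transcript only, 741 with curated transcripts and 972 with only the 2 groups fitted, and in A10-FMT against Con-FMT from 1312 to 315 and 546 with the first 2 of these, against 2339 with equal totals outside globin. Median-of-ratios scaling turned the 599 higher and 1239 lower genes of B-sa against Con-sa into 965 and 772, the 960 and 352 of A10-FMT against Con-FMT into 560 and 695, and the 507 and 161 of A10-FMT against B-sa into 282 and 349, and the 292 and 832 of Con-FMT against Con-sa into 580 and 527. Equal totals outside globin gave 2100 higher and 239 lower genes in A10-FMT against Con-FMT, 199 and 1637 in Con-FMT against Con-sa, and 67 and 113 in place of 79 and 28 in Con-FMT against B-sa. With 1 mouse left out the calls over all genes ranged from 510 (without B-sa replicate 2) to 2100 (without B-sa replicate 1) in B-sa against Con-sa, from 19 to 468 without the same 2 mice in Con-FMT against B-sa, where 107 were called with all mice, from 106 (without A10-FMT replicate 2) to 833 (without B-sa replicate 1) in A10-FMT against B-sa and from 222 (without A10-FMT replicate 2) to 1159 in A10-FMT against Con-FMT. They were 1 (without A10-FMT replicate 1) to 49 in place of 52 in A10-FMT against Con-sa, and 337 (without Con-sa replicate 1) to 665 in place of 1124 in Con-FMT against Con-sa.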
